A study of Homo sapiens with 2 samples.

Results

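The genes described here are 10 regulators and effectors of epithelial-mesenchymal transition (EMT), taken by symbol from the 20263 genes that both tables list. They are the EMT inducers SNAI1, SNAI2, SNAI3, ZEB1, ZEB2 and TWIST1, the epithelial guardians GRHL2, OVOL1 and OVOL2, and the intermediate filament gene VIM. All 10 symbols were found once in each table. The cells were Cal-27, an established tongue squamous carcinoma line, grown in DMEM with fetal bovine serum. One culture was stably transduced with an shRNA against HIPK2 (GV-248-HIPK2-sh), a nuclear serine/threonine kinase, and the other with a scrambled shRNA (sh-scramble). The comparison addresses which genes of invasion and EMT differ after attenuation of HIPK2. Each culture gave 1 library, so no spread between cultures can be estimated and no p-value is given. A difference below is one between these libraries, and with a single culture each it cannot be assigned to the shRNA. Bracketed ranges are 95% exact intervals and cover counting error only. Without molecular identifiers several reads can come from a single molecule, so the intervals may be too narrow even for that. In bulk RNA, fewer cells with a transcript and less of it in each cell cannot be told apart.

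The total count was 26450251 in the library labelled HIPK2 shRNA and 28064923 in the control. The count of the targeted gene went against the label and its TPM did not. HIPK2 had 218 counts in the library labelled HIPK2 shRNA and 110 in the control, but its deposited TPM (a level per transcript length, scaled to a fixed total) was 0.873 under the HIPK2 shRNA label and 1.63 in the control. The length implied by its counts and FPKM was 13819 bases under the HIPK2 shRNA label and 3443 bases in the control, a ratio of 4.01, which is the arithmetic of that clash. A decrease of HIPK2 was therefore not established, and every direction below is that of the library labelled HIPK2 shRNA. Of 14 markers of squamous epithelium, all 14 reached 1 CPM (a count scaled to a common library total) in a library, with KRT5, a basal keratin, at 1765 TPM under the HIPK2 shRNA label and 1624 TPM in the control. Levels are given as CPM scaled with TMM factors, which correct for differences in composition between libraries. Levels are compared between genes only in TPM.

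In EMT, epithelial cells lose their junctions and apical-basal polarity and take on migratory traits. SNAI and ZEB factors are zinc finger proteins that bind E-box sequences, among them those of the E-cadherin gene CDH1, and repress epithelial genes, while TWIST1 is a basic helix-loop-helix factor. GRHL2 and the OVOL factors hold the epithelial state, in part by opposing ZEB factors, and the miR-200 microRNAs and ZEB factors repress each other. Vimentin, the product of VIM, is the main filament protein of mesenchymal cells and is a widely used marker of the transition in carcinoma.

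SNAI1 and VIM were the members that differed by more than 2-fold between the libraries, and both were higher in the library labelled HIPK2 shRNA. Genes that reached 1 CPM in either library are called expressed. Those whose log2 ratio of (CPM + 1) reached 1 or -1 are called past 2-fold, a threshold on size with no test behind it. By these rules 8 of the 10 members were expressed, 2 passed on the higher side and 0 on the lower side. Of all genes, 3.26% of the 11813 expressed ones passed on the higher side and 2.87% on the lower side, 6.13% in either direction. In the deposited TPM the same 2 members passed, both higher, against 3.01% of 10885 genes on the higher side, 2.54% on the lower side and 5.55% in either direction. The median log2 ratio was 0.165 over all 10 members with no filter, and 0.0 over all expressed genes. VIM and SNAI3 passed the filter only through the library labelled HIPK2 shRNA, so their direction is partly set by it. The pair past 2-fold had at most 5.65 CPM in either library, so both calls rest on genes of low level. With a pseudocount of 5 in place of 1 their log2 ratios were 0.69 for SNAI1 and 0.44 for VIM, and neither passed.

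**Figure D1:**
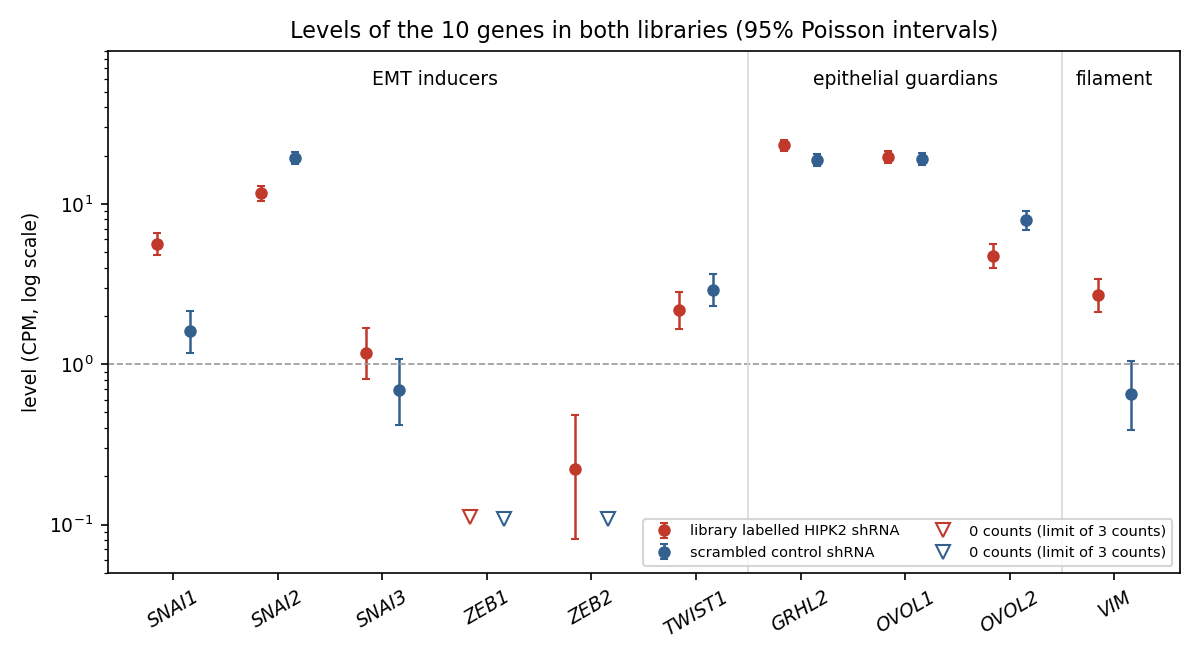
Level of each of the 10 genes in CPM on a log scale, with points for the library labelled HIPK2 shRNA (red, left) and the scrambled control (blue, right), bars for 95% Poisson intervals of counting error, and open triangles at the limit of 3 counts where a gene had 0 counts. SNAI1, at 5.65 CPM under the HIPK2 shRNA label and 1.60 CPM in the control, and VIM, at 2.70 CPM under the HIPK2 shRNA label and 0.656 CPM in the control, were separated by more than their counting intervals, and ZEB1 had 0 counts in both libraries. The intervals of SNAI2 and OVOL2, which were lower, and of GRHL2, which was higher, did not overlap either.

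The SNAI genes did not differ in a single direction. SNAI1 (ENSG00000124216, chromosome 20, 49982999 to 49988886, plus strand, GRCh38), a direct repressor of CDH1, had 153 counts in the library labelled HIPK2 shRNA and 44 in the control. These gave 5.65 CPM (4.79 to 6.62) under the HIPK2 shRNA label and 1.60 CPM (1.17 to 2.15) in the control. The counting intervals do not overlap, and the log2 ratio of (CPM + 1) was 1.35, higher than in all but 178 of the expressed genes. In TPM the level was 5.02 under the HIPK2 shRNA label and 1.31 in the control, a ratio of 3.84. SNAI1 has a single annotated transcript of 1686 bases, shares no exon base with another gene in GENCODE 29, and its counts and FPKM imply a length of 1685 bases under the HIPK2 shRNA label and 1710 bases in the control. The CPM and TPM readings of this gene are thus tied by nearly the same length in both libraries.

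SNAI2 (ENSG00000019549, chromosome 8, 48917768 to 48921740, minus strand), also called Slug and highly expressed in basal keratinocytes, was lower. It had 314 counts in the library labelled HIPK2 shRNA and 528 in the control, at 11.6 CPM (10.4 to 13) under the HIPK2 shRNA label and 19.2 CPM (17.6 to 21) in the control. Its log2 ratio of (CPM + 1) was -0.68, under 2-fold, and 880 of 11813 expressed genes had a lower one. SNAI3 (ENSG00000185669, chromosome 16, 88677682 to 88686493, minus strand), the least studied of the family, had 32 counts under the HIPK2 shRNA label and 19 in the control. Its levels were 1.18 CPM (0.809 to 1.67) under the HIPK2 shRNA label and 0.693 CPM (0.417 to 1.08) in the control. Its CPM ratio of 1.71 had an interval that includes 1 (0.939 to 3.19), so no difference was detectable at this depth. Of its exon bases, 9.41% overlap SNAI3-AS1 on the opposite strand, and no source used here states whether counting used strand.

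The opposite directions of SNAI1 and SNAI2 changed the make-up of the family while its summed TPM differed little. Its summed counts differed more, at 499 under the HIPK2 shRNA label and 591 in the control before scaling for depth. After scaling, the CPM of all 6 inducers summed to 20.8 under the HIPK2 shRNA label and 24.5 in the control. The summed TPM of SNAI1, SNAI2 and SNAI3 was 14.7 in the library labelled HIPK2 shRNA and 15.3 in the control. SNAI1 made up 34.2% of that TPM in the library labelled HIPK2 shRNA and 8.53% in the control. SNAI2 made up 58.9% under the HIPK2 shRNA label and 87.9% in the control, and SNAI3 6.83% under the HIPK2 shRNA label and 3.55% in the control. As a share of the family's counts SNAI1 held 153 of 499 (30.7%, Clopper-Pearson 26.6 to 34.9) under the HIPK2 shRNA label and 44 of 591 (7.45%, 5.46 to 9.87) in the control. SNAI2 remained the most abundant of the family in both libraries, at 1.72 times the TPM of SNAI1 in the library labelled HIPK2 shRNA and 10.3 times in the control.

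**Figure D2:**
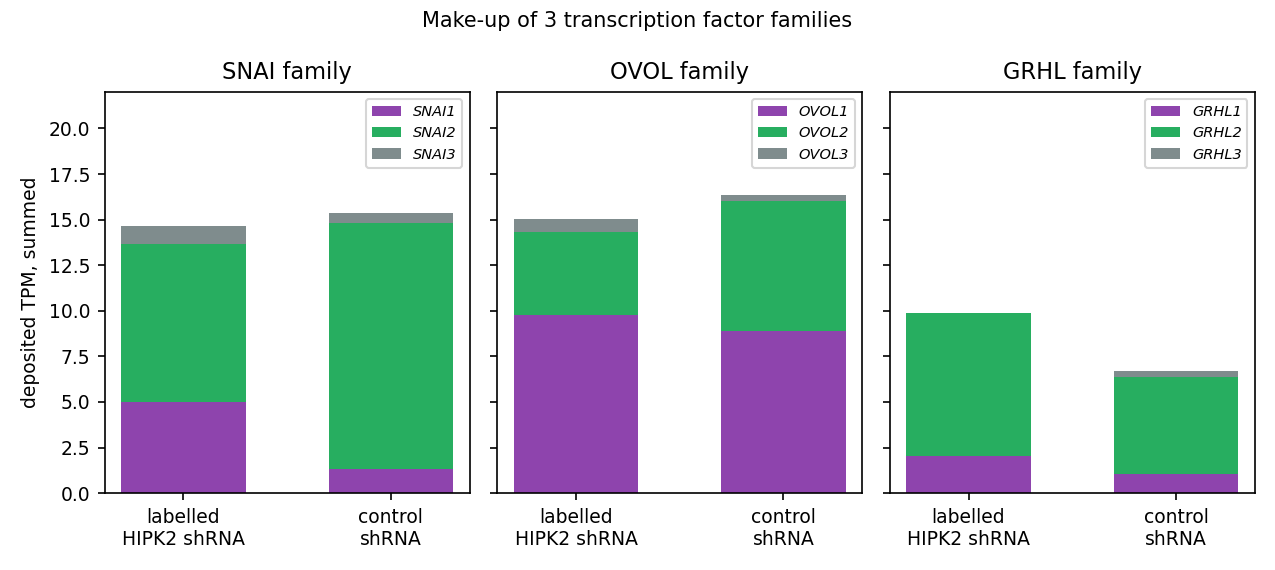
Stacked bars of the deposited TPM of the SNAI, OVOL and GRHL families, with the library labelled HIPK2 shRNA at the left and the scrambled control at the right of each panel; there is 1 library per bar and no error bar. The SNAI total was 14.7 TPM under the HIPK2 shRNA label, of which SNAI1 made up 34.2%, and 15.3 TPM in the control, of which it made up 8.53%. The GRHL total was 9.86 TPM under the HIPK2 shRNA label and 6.69 TPM in the control.

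TWIST1 (ENSG00000122691, chromosome 7, 19020991 to 19117672, minus strand) had lower values in both units, by an amount that depended on the unit. It had 59 counts in the library labelled HIPK2 shRNA and 80 in the control, at 2.18 CPM (1.66 to 2.81) under the HIPK2 shRNA label and 2.92 CPM (2.31 to 3.63) in the control. The CPM ratio of 0.748 had an interval that includes 1 (0.525 to 1.06), so no difference in CPM was detectable at this depth. In TPM the level was 2.24 under the HIPK2 shRNA label and 4.15 in the control, a ratio of 0.540. The length implied by counts and FPKM was 1456 bases in the library labelled HIPK2 shRNA and 981 bases in the control, a ratio of 1.49, and the gene has 3 annotated transcripts of 527 to 1666 bases. An antisense gene overlaps 6.94% of its exon bases. Of all expressed genes with a value, 4.93% had implied lengths over 1.5-fold apart and 74.4% had them within 1.1-fold. The relative TWIST2 had 0 counts in both libraries.

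The ZEB genes were at or near the limit of detection. ZEB1 (ENSG00000148516, chromosome 10, 31319125 to 31529814, plus strand) had 0 counts in both libraries, which by a one-sided limit of 3 counts allows up to 0.111 CPM under the HIPK2 shRNA label and 0.109 CPM in the control. The exact Poisson interval used for the other levels reaches 0.136 CPM under the HIPK2 shRNA label and 0.134 CPM in the control. ZEB2 (ENSG00000169554, chromosome 2, 144364364 to 144521057, minus strand) had 6 counts in the library labelled HIPK2 shRNA and 0 in the control. Its 0.222 CPM is at least 2.03-fold higher than the limit of 3 counts in the control, but the interval of the 6 counts (0.0814 to 0.483 CPM) reaches below that limit. The exact interval of its CPM ratio, which rests on these 6 counts alone, begins at 1.19-fold higher. Over the listed genes, 28.1% had 0 counts in both libraries. ZEB1 and ZEB2 did not pass the filter on low values and are not among the 8 expressed genes.

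Promoter windows, 250 bases before to 50 bases after a start annotated by RefSeq on GRCh38.p14, were at hand for 3 of the 10 members, VIM, ZEB1 and ZEB2. The RefSeq start lies 18 bases upstream of the start in the deposited tables for VIM, 91 bases downstream for ZEB1 and 938 bases downstream for ZEB2, so the ZEB2 window lies inside the gene as the tables place it. ZEB1 has 7 such windows, of which the one with the nearest start is shown. They are shown because the family's factors act at E-boxes, because VIM was past 2-fold, and because the ZEB genes had the fewest counts. Capitals mark E-boxes, CANNTG, which reads the same on both strands.
VIM promoter, chr10:17227991-17228290, plus strand: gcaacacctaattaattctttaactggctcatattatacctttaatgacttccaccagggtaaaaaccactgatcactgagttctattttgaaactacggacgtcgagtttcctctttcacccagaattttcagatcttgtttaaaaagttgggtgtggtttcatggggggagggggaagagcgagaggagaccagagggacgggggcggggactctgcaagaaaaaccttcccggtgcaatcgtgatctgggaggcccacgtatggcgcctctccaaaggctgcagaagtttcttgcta
ZEB1 promoter, chr10:31318966-31319265, plus strand: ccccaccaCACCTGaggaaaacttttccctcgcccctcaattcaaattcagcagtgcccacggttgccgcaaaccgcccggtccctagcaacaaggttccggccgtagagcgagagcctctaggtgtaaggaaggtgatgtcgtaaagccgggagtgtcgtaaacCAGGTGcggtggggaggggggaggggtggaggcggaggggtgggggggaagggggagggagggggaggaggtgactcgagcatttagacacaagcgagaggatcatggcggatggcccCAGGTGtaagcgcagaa
ZEB2 promoter, chr2:144520070-144520369, minus strand: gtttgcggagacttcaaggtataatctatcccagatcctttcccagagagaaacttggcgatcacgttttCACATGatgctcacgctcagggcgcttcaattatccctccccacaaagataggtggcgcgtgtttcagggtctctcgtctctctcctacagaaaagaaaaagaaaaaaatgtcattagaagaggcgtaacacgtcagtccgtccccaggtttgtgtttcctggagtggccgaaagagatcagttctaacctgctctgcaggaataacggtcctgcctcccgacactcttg

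Relative to the RefSeq start, the ZEB1 window holds 3 E-boxes, whose first bases are at -242, -85 and 34. All 3 are the form CAGGTG, or its reverse complement CACCTG, that SNAI and ZEB zinc fingers bind, and 2 of the 7 ZEB1 windows hold that form. The ZEB2 window holds 1, at -180 from the RefSeq start, of another form, and the VIM window holds 0. Over all 35116 windows of the same length, 68.7% hold a CANNTG and 20.6% hold CAGGTG or CACCTG, which are among the CANNTG forms. G and C made up 48% of the VIM window, 61.7% of the ZEB1 window and 49% of the ZEB2 window, against a median of 58.7% over all windows. These are matches of letters in the reference sequence and no binding was measured.

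Of the epithelial guardians, GRHL2 was slightly higher, OVOL1 differed by less than its counting error and OVOL2 was lower, each by less than 2-fold. GRHL2 (ENSG00000083307, chromosome 8, 101492432 to 101669726, plus strand), a grainyhead factor that activates CDH1 and claudin genes, had 626 counts in the library labelled HIPK2 shRNA and 512 in the control. The levels were 23.1 CPM (21.4 to 25) under the HIPK2 shRNA label and 18.7 CPM (17.1 to 20.4) in the control, and their ratio was 1.24 (1.1 to 1.4). The TPM was 7.84 under the HIPK2 shRNA label and 5.33 in the control, a ratio of 1.47, with an implied length 0.903 times that in the control. OVOL1 (ENSG00000172818, chromosome 11, 65787022 to 65797219, plus strand), a zinc finger repressor of ZEB1, had 530 counts under the HIPK2 shRNA label and 523 in the control. Its levels were 19.6 CPM (18 to 21.3) under the HIPK2 shRNA label and 19.1 CPM (17.5 to 20.8) in the control. The interval of its ratio, 1.03 (0.909 to 1.16), includes 1. An antisense gene overlaps 27.1% of its exon bases.

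OVOL2 (ENSG00000125850, chromosome 20, 18024152 to 18057877, minus strand), which also represses ZEB1, had 128 counts in the library labelled HIPK2 shRNA and 217 in the control. The levels were 4.73 CPM (3.95 to 5.62) under the HIPK2 shRNA label and 7.91 CPM (6.89 to 9.04) in the control, with intervals that do not overlap. It was 1.67-fold lower (1.34 to 2.1), close to the 1.66-fold (1.44 to 1.91) of SNAI2, and its implied length was 1554 bases in both libraries. In GENCODE 29 its neighbour SNX5, on the same strand, shares 2.71% of its exon bases. There OVOL2 runs from 17956979 to 18059188, beyond both ends of the deposited position, so the shared bases may lie outside the gene as counted. OVOL1 had 2.14 times the TPM of OVOL2 in the library labelled HIPK2 shRNA and 1.25 times in the control. Of the other members of these families, GRHL3, a grainyhead factor of the epidermal barrier, had 0 counts in the library labelled HIPK2 shRNA and 17 in the control. The interval of its ratio begins at 4.07-fold lower. At 0.62 CPM in the control GRHL3 did not pass the filter on low values, and its log2 ratio of (CPM + 1) was -0.70. GRHL1 had 63 counts under the HIPK2 shRNA label and 74 in the control, and OVOL3 had 9 under the HIPK2 shRNA label and 5 in the control.

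VIM (ENSG00000026025, chromosome 10, 17228259 to 17237593, plus strand) was higher, and was a rare transcript in both libraries. It had 73 counts in the library labelled HIPK2 shRNA and 18 in the control, at 2.70 CPM (2.11 to 3.39) under the HIPK2 shRNA label and 0.656 CPM (0.389 to 1.04) in the control. The ratio was 4.11 (2.43 to 7.32) in CPM and 5.21 in TPM, at 2.15 TPM under the HIPK2 shRNA label and 0.412 TPM in the control. Its log2 ratio of (CPM + 1), 1.16, was exceeded by 279 of the 11813 expressed genes. Its level was below that of the simple epithelial keratins KRT8 and KRT18 by a wide margin. KRT8 had 988 times the TPM of VIM in the library labelled HIPK2 shRNA and 7089 times in the control, and KRT18 had 764 times under the HIPK2 shRNA label and 4908 times in the control. CDH1 had 13.9 times the TPM of VIM in the library labelled HIPK2 shRNA and 128 times in the control. In GENCODE 29 VIM-AS1 overlaps 12.4% and a second antisense gene 12% of the exon bases of VIM, and if counting ignored strand their reads cannot be told apart from those of VIM.

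VIM is also abundant in fibroblasts, leukocytes and endothelium. Of 10 fibroblast markers, 3 were expressed and 0 were past 2-fold, and the CPM of the 10 summed to 22 under the HIPK2 shRNA label and to 18.7 in the control. The 3 expressed were PDGFRB, 1.68 times higher (1.14 to 2.5), COL1A1, 1.32 times higher (1.12 to 1.56), and COL1A2, at 0.889 times (0.716 to 1.1), while DCN, PDGFRA, FAP and POSTN had 0 counts in both. Of 10 leukocyte markers 4 were expressed and 0 were past 2-fold, with sums of 34.7 CPM under the HIPK2 shRNA label and 38.2 CPM in the control, and PTPRC, CD3D, CD3E and MS4A1 had 0 counts in both. The 4 expressed were CD14, 1.52-fold lower (1.16 to 2.02), and CD68, ITGAM and CSF1R, at ratios of 0.892, 1.3 and 1.04. Of 7 endothelial markers 2 were expressed, with sums of 28.6 CPM under the HIPK2 shRNA label and 56.3 CPM in the control that were mostly CDH5, and PECAM1, KDR and TEK had 0 counts in both. The part of these genes in the VIM result was not tested.

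**Figure D3:**
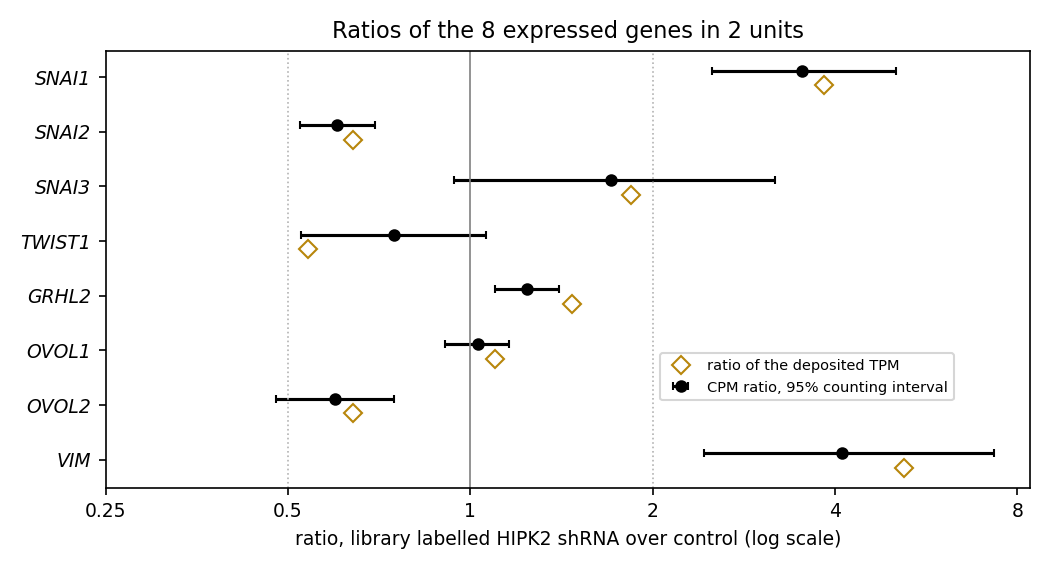
Ratio of the library labelled HIPK2 shRNA over the control for the 8 expressed genes, on a log scale: black points are CPM ratios with 95% counting intervals and open diamonds are ratios of the deposited TPM, which carry no interval. Both units put each gene on the same side of 1, and the TPM ratio lay outside the CPM interval for GRHL2 (1.47 against 1.1 to 1.4).

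The order of the members by level differed between the libraries. In the library labelled HIPK2 shRNA it ran from OVOL1 at 9.77 TPM through SNAI2 at 8.64, GRHL2 at 7.84, SNAI1 at 5.02, OVOL2 at 4.56, TWIST1 at 2.24 and VIM at 2.15 to SNAI3 at 1.0 TPM. There the counting intervals of neighbours overlapped between OVOL1 and SNAI2, SNAI2 and GRHL2, SNAI1 and OVOL2, and TWIST1 and VIM. In the control it ran from SNAI2 at 13.5 TPM through OVOL1 at 8.89, OVOL2 at 7.11, GRHL2 at 5.33, TWIST1 at 4.15, SNAI1 at 1.31 and SNAI3 at 0.545 to VIM at 0.412 TPM. There only GRHL2 and TWIST1, and SNAI3 and VIM, had overlapping intervals. SNAI1 had a higher TPM than 64.3% of listed genes in the library labelled HIPK2 shRNA and than 51.4% in the control, and VIM a higher one than 54.5% under the HIPK2 shRNA label and 43.2% in the control.

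**Figure D4:**
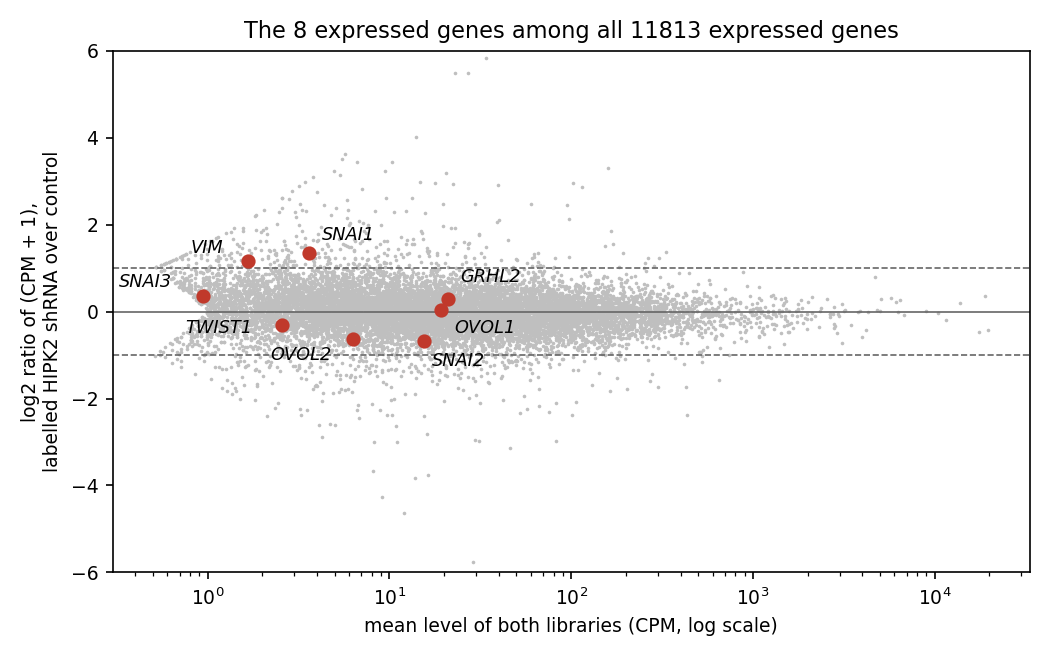
The log2 ratio of (CPM + 1), library labelled HIPK2 shRNA over control, against the mean level of both libraries (CPM, log scale), for all 11813 expressed genes (grey) and the 8 expressed members (red); dashed lines mark 2-fold. SNAI1 at 1.35 and VIM at 1.16 lie above the upper line and the other 6 lie between the lines.

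Among the lists of other genes of the pathway, every median was under 2-fold. Of all expressed genes, 3.26% passed 2-fold on the higher side and 2.87% on the lower side, the background for the counts of each list. The lists are short, and their counts are given as description only. Of 15 other EMT inducers 8 were expressed, 2 higher and 6 lower. Of these, 0 passed 2-fold on the higher side and 2 on the lower side, with a median log2 ratio of -0.468. That median was -0.167 with a filter at 10 CPM and -0.318 by TPM. It was 0.0 with no filter, where 5 of the 15 had 0 counts in both libraries. FOXQ1, a forkhead factor, was 3.13-fold lower (2.49 to 3.95), with 101 counts in the library labelled HIPK2 shRNA and 320 in the control. RUNX2, the osteoblast factor, was 1.73-fold lower (1.38 to 2.17). Of 14 other epithelial factors 11 were expressed and only ELF3, an ETS factor of epithelia, passed 2-fold, at 91.4 CPM under the HIPK2 shRNA label and 40.6 CPM in the control, 2.25 times higher (2.09 to 2.41). EHF and KLF5 followed at log2 ratios of 0.34 and 0.18, and the list median was 0.010.

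Among 22 epithelial genes known as targets of SNAI or ZEB repression, all expressed, 10 were higher and 12 lower, with 2 past 2-fold on the higher side and 1 on the lower side. CDH1 had 2361 counts in the library labelled HIPK2 shRNA and 5049 in the control, a log2 ratio of -1.07 in (CPM + 1) and of -0.80 in (TPM + 1). The tight junction genes TJP3 and CLDN3 were on the other side, at log2 ratios of 1.41 and 1.1. CLDN3 had 137 counts under the HIPK2 shRNA label and 50 in the control, 2.78 times higher (2.0 to 3.92). The list median was -0.069, and 0.073 by TPM, on the other side of 0. The list of 8 epithelial genes bound by GRHL2 shares 6 with it and had the same median, 0.023 by TPM, with SPINT1, a protease inhibitor, at -0.47. Beside these, 4 of the 14 squamous markers were higher and 10 lower, and KRT14, a basal keratin, was among those past 2-fold lower. KRT14 had 44 counts in the library labelled HIPK2 shRNA and 318 in the control. The part of this in the results of the members was not tested.

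Of 24 mesenchymal effectors 20 were expressed, 10 higher and 10 lower, with 1 past 2-fold in each direction and a median of 0.106. MMP2, a gelatinase, had 100 counts in the library labelled HIPK2 shRNA and 34 in the control, 2.98 times higher (2.0 to 4.54), with a TPM ratio of 3.18. Its log2 ratio of (TPM + 1) was 0.76, since the pseudocount of 1 is large beside its TPM. COL5A1, a fibrillar collagen chain, was 1.90 times higher (1.77 to 2.04). CDH2, the N-cadherin gene that often replaces CDH1 in EMT, was 1.42-fold lower (1.24 to 1.62), at 14.5 CPM under the HIPK2 shRNA label and 20.5 CPM in the control.

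Of 13 genes of other filaments, lamins and the linker PLEC, 8 were expressed, 7 higher and 1 lower, and 0 were past 2-fold. Their median log2 ratio was 0.434, and 0.381 by TPM over the same 8 genes. It was 0.038 with no filter, 0.060 with a filter at 10 CPM, and 0.216 by TPM when the filter was set at 1 TPM. Like VIM, NES, NEFL and NEFM passed the filter only through the library labelled HIPK2 shRNA, and GFAP, with 0 counts there and 6 in the control, did not pass. The neuronal and progenitor filament genes NES, NEFL and NEFM each had 32 to 45 counts under the HIPK2 shRNA label and 8 to 12 in the control. Their CPM ratios were 3.8 (1.98 to 7.9) for NES, 4.44 (2.02 to 11.1) for NEFL and 3.60 (1.68 to 8.59) for NEFM. At under 2 CPM each, the pseudocount of 1 keeps their log2 ratios at 0.89, 0.83 and 0.72. The abundant lamin gene LMNA was at -0.29.

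Of 15 corepressors through which SNAI and ZEB factors act, all were expressed and 0 were past 2-fold in CPM, with a median of 0.069. By TPM the median was 0.105. In that unit HDAC2 passed on the higher side, at a log2 ratio of 1.32, and CTBP2 on the lower side, at -1.15. KDM1A, the histone demethylase that binds the N-terminal domain of SNAI1, had 15706 counts in the library labelled HIPK2 shRNA and 8599 in the control, 1.85 times higher (1.80 to 1.90). EED, a subunit of the Polycomb complex PRC2, was 1.86-fold lower (1.67 to 2.07). Of 14 genes of SNAI1 protein turnover and its kinases 13 were expressed and 0 were past 2-fold, with a median of -0.035, and 0.150 by TPM. The phosphatase CTDSP1 was at -0.63, the signalosome subunit COPS2 at 0.53, and the ubiquitin ligase subunit FBXL5 at -0.35.

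**Figure D5:**
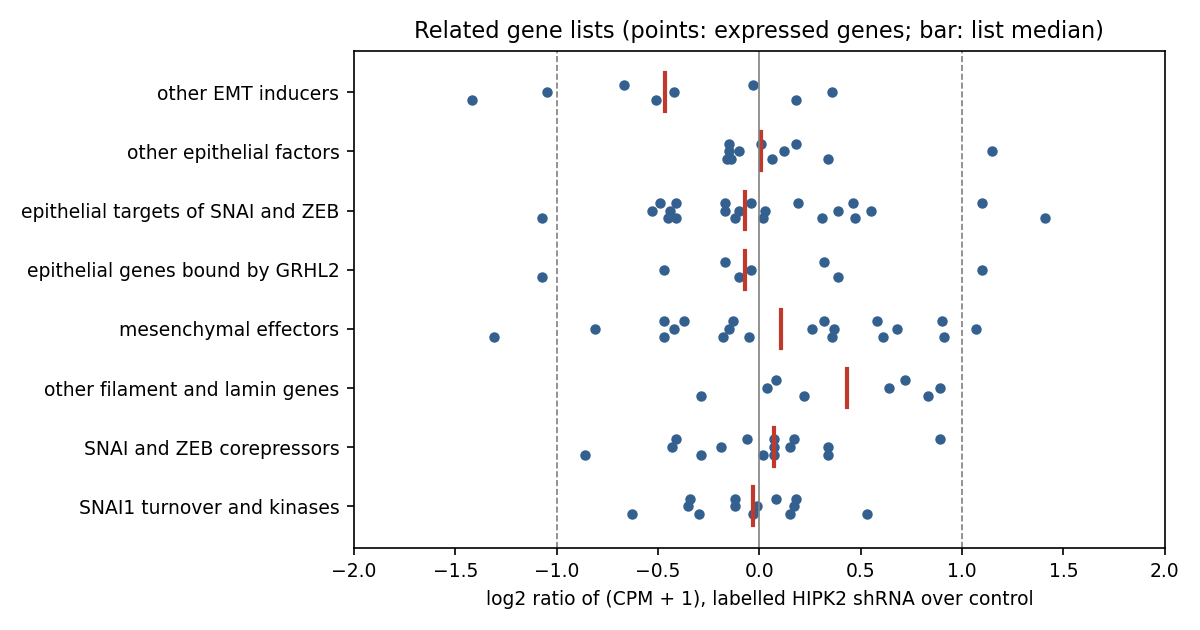
Log2 ratio of (CPM + 1), library labelled HIPK2 shRNA over control, of each expressed gene in 8 related lists (blue points, spread vertically only for legibility), with the list median as a red bar and dashed lines at 2-fold. The medians run from -0.468 for the other EMT inducers to 0.434 for the other filament and lamin genes, beside 0.0 over all expressed genes. With no filter they were 0.0 for the other EMT inducers and 0.038 for the other filament and lamin genes.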

How the data were processed

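RNA was extracted with TRIzol, libraries came from a Gnomegen kit, and paired 150 bp reads were taken on a HiSeq instrument, per the labels' protocols. The submitters' processing notes name FastQC, TopHat2 2.1.1 and the build GRCh38 (hg38). The counting tool, its annotation and its strand setting were not given in the sources used here. Per the file headers, the authors deposited for each gene its count, TPM and FPKM.

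Counts were scaled with TMM factors (1.02 for the library labelled HIPK2 shRNA and 0.977 for the control) from edgeR 4.0.16 in R 4.3.3. edgeR gave only these factors: a single library in each group leaves nothing from which to estimate spread. Ratio intervals are Clopper-Pearson intervals given the sum of both counts, and level intervals are exact Poisson intervals (scipy 1.17.1). Implied length is the count over the FPKM, set to annotated length on genes with 1 transcript. Of such genes at 100 counts or more, 98.7% in each library came within 10% of it. Exon overlaps are from GENCODE 29, whose positions equal those of the files for 6 of the 10 members. It also lists processed pseudogenes of SNAI1, VIM and ZEB2, which the tables do not, and reads could be shared with them.

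The members and lists were chosen with earlier results of these data known. Named genes are all members, HIPK2, CDH1 and, per list, up to 3 expressed genes with the largest absolute log2 ratio. Genes named outside that rule (GRHL1, GRHL3, OVOL3, TWIST2, KRT5, KRT8, KRT18, CDH2, LMNA, GFAP and CSF1R, the markers at 0, and HDAC2 and OCLN) were chosen after their values were seen. With 2 libraries each gene has a single ratio, so no likeness of pattern between genes was computed. Some genes that this rule names are not reported here.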

Additional observations from a re-analysis of the deposited data

How the results depend on the processing

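No replicate could be left out of a group of 1. No paired analysis was possible because there is a single library on either side. The 2 members past 2-fold higher, SNAI1 and VIM, kept that call with total counts only, median-ratio size factors, upper-quartile factors and the deposited TPM. They also kept it with a pseudocount of 0.1, no filter and a 1.5-fold rule, which by construction cannot remove such a call. The count was 0 with a pseudocount of 5, with a filter at 10 CPM and at 4-fold. With the pseudocount of 5 the log2 ratios were 0.69 for SNAI1 and 0.44 for VIM, and the filter removes both genes by its construction. The 0 members past 2-fold lower became 2, SNAI2 and OVOL2, at 1.5-fold. Of 59 log2 ratios of the 8 expressed members under other settings, 0 changed sign. A change of pseudocount or filter cannot change the sign of a gene's ratio, so only the other scalings and the deposited TPM bear on this. Of 96 list medians, 11 changed sign, and the cause was not tested. Of all genes, 385 were past 2-fold higher and 339 lower under the HIPK2 shRNA label. These counts were 676 and 515 at a pseudocount of 0.1, 124 and 161 at 5, 159 and 217 at a 10 CPM filter, 1254 and 1176 for 1.5-fold, and 62 and 48 for 4-fold. The deposited TPM gave 328 higher (3.01%) and 276 lower (2.54%) of 10885 genes. Depth limits the rare members: 1 count was worth 0.037 CPM in the library labelled HIPK2 shRNA and 0.0365 CPM in the control.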

Other observations

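Some genes around these factors differed between units by more than the members did. HDAC2, a deacetylase of the SNAI1 corepressor complex, had 649 counts in the library labelled HIPK2 shRNA and 626 in the control, but 11.9 TPM under the HIPK2 shRNA label and 4.18 TPM in the control. Its implied length was 3016 bases under the HIPK2 shRNA label and 7629 bases in the control. GRHL1 had 2.03 TPM and an implied length of 1719 bases under the HIPK2 shRNA label, and 1.06 TPM and 3549 bases in the control. The tight junction gene OCLN had 64 counts, 1.62 TPM and 2187 bases under the HIPK2 shRNA label, and 73 counts, 0.807 TPM and 4607 bases in the control. CTBP2 had a CPM ratio of 0.734 and a log2 ratio of (TPM + 1) of -1.15, with an implied length 1.86 times that in the control. The cause was not tested.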
